A study of Homo sapiens with 12 samples.

Results

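MHC class I molecules and their stress-induced relatives were followed at the RNA level in 3 human cancer cell lines given G-quadruplex (G4) forming or control oligonucleotides. The 9 genes were the classical class I heavy chains HLA-B and HLA-C, the non-classical heavy chains HLA-E, HLA-F and HLA-G, the light chain B2M, the stress ligands MICA and MICB, and NLRC5, the transactivator of class I genes. Every probe set whose platform annotation named only 1 of these genes was taken, which gave 23 of the 54613 probe sets tested and 9 of 19775 genes. HLA-C and HLA-G had 4 probe sets each, HLA-B, HLA-E, HLA-F and B2M had 3 each, and MICA, MICB and NLRC5 had 1 each. The HLA and MIC genes lie on chromosome 6, B2M on chromosome 15 and NLRC5 on chromosome 16. Of the 23 identifiers, 15 end in _x_at, the suffix of probe sets with probes shared between sequences. All 15 belong to heavy chains, so signal from similar class I genes cannot be separated in them, and HLA-E 200904_at and HLA-F 221978_at are the heavy chain probe sets without the suffix.

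The lines were PC-3 (prostate cancer), HBC4 (breast cancer) and MKN74 (gastric cancer), each grown in low-adhesion plates in 3D culture. Each line received 4 treatments by reverse transfection of 300000 cells, with RNA taken after 72 hours. They were the lipid reagent alone, the RNA oligonucleotide (uuaccc)4 as a sequence that does not form a G4, the telomeric-repeat RNA (uuaggg)4, and AS1411, a G-rich DNA aptamer; each oligonucleotide was given at about 100 pmol per well. The design text sets the 6 arrays with (uuaggg)4 or AS1411 against the 6 with the reagent alone or (uuaccc)4, called controls here. Each line and treatment has 1 array, and the labels name no separate cultures. The replicates of a treatment are therefore the 3 lines, and p-values for treatments measure the spread between these arrays. In comparisons within a line or between lines, the control arrays of a line had different treatments, as had its G4 arrays. Those p-values measure the spread between such arrays, and no p-value here measures that between replicate cultures. The number of arrays limits the precision. The deposited values are log2 expression centred on 0 for each probe set, so they show differences between arrays and not levels, and no gene can be called absent or set against another gene's level. Differences in a mixed RNA sample cannot tell fewer expressing cells from less RNA per cell.

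The lines carried part of the markers of their labelled origin. HOXB13, a prostate lineage factor, differed from PC-3 by -4.73 in HBC4 and -4.97 in MKN74 on the control arrays, on the log2 scale. The breast marker GATA3 was 5.30 higher in HBC4 than in PC-3, but also 4.88 higher in MKN74 than in PC-3, while TRPS1 was 1.51 higher in HBC4 than in PC-3 and differed by -1.20 between MKN74 and PC-3. The intestinal factor CDX2 was 0.95 higher in MKN74 than in PC-3. VIL1, an intestinal brush border protein, was 0.30 higher in MKN74 than in PC-3, while CDH17 and GKN1 gave 0.05 and 0.26 (adjusted p 0.82 and 0.254). TFF1, a gastric mucosal peptide, was high in PC-3, with differences of -8.35 for MKN74 minus PC-3 and -8.46 for HBC4 minus PC-3, and MKN74 minus HBC4 was 0.11 (adjusted p 0.651). The differences given without a p had a limma adjusted p under 0.05. No line had a replicate culture of a treatment, so these p-values do not measure the spread between cultures of a line.

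Class I molecules present peptides on the surface of nucleated cells: a heavy chain pairs with B2M and is loaded with peptides cut by the proteasome and carried into the endoplasmic reticulum by the TAP transporter. HLA-B and HLA-C present to cytotoxic T cells and bind receptors of natural killer (NK) cells, HLA-E and HLA-G are ligands of inhibitory NK and myeloid receptors, and MICA and MICB are recognised by the activating receptor NKG2D. NLRC5 is induced by interferon and acts on class I promoters through a complex of RFX, CREB or ATF, and NF-Y proteins that sits on the X and Y boxes, next to an interferon-stimulated response element (ISRE) bound by IRF proteins.

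The promoter sequences are shown because members with and without those boxes can be set beside the response of each gene. Promoters from RefSeq (GRCh38.p14) were matched by symbol for 7 of the 9 genes (9 entries, since HLA-G has 3 annotated starts); HLA-E and NLRC5 have no entry in the table used. Each line gives a window of 145 bases that ends 41 bases before the annotated start, read 5′ to 3′ on the strand of the gene. Capitals mark matches on either strand to GAAA or GAA followed, after 2 bases of any kind, by GAAA (called ISRE-like, long and short), TGACG (the core of the X2 box), CCAAT (the letters of the Y box, ATTGG on the other strand) and GGGGATT followed directly by CCCC (an NF-kB site). A CCAAT match need not be the Y box itself.
HLA-B, chr6:31357220-31357364, minus strand: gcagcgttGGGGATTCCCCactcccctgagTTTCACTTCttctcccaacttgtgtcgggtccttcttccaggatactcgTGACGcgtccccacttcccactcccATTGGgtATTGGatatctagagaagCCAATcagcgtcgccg
HLA-C, chr6:31272133-31272277, minus strand: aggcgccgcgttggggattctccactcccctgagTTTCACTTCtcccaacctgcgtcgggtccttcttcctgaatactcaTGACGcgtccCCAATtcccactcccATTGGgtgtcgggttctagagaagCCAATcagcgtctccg
HLA-F, chr6:29723249-29723393, plus strand: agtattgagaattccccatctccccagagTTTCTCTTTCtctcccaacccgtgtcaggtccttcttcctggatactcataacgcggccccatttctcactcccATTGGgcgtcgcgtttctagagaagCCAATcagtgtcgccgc
B2M, chr15:44711332-44711476, plus strand: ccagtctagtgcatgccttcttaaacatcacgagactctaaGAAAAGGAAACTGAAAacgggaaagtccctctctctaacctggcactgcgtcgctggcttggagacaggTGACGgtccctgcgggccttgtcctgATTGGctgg
MICA, chr6:31403410-31403554, plus strand: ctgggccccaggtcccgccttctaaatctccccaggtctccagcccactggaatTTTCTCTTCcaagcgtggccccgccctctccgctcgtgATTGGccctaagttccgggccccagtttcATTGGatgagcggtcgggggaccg
MICB, chr6:31497960-31498104, plus strand: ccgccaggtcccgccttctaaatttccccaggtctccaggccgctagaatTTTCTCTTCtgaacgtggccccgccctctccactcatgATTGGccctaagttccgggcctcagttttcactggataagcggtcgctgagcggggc
HLA-G, chr6:29827640-29827784, plus strand: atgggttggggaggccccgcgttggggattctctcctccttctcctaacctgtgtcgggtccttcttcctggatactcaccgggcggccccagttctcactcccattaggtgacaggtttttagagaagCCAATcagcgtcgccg

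HLA-B, HLA-C and B2M each held an ISRE-like match, TGACG and CCAAT in this window, a combination found in 0.117% of the 35116 promoter windows of the same length (41 windows). HLA-B held 3 CCAAT matches and the NF-kB site, which 0.0199% of windows hold (7 windows). HLA-C held 3 CCAAT matches, and B2M held 1 together with a pair of long ISRE-like matches that overlap each other. HLA-F held a long ISRE-like match and 2 CCAAT matches. The third HLA-G start held 1 CCAAT match, 56 to 52 bases before the start, where HLA-B and HLA-C also hold CCAAT. It lacked the ATTGG that HLA-B, HLA-C and HLA-F hold between 82 and 76 bases before theirs. The windows of the other 2 HLA-G starts held none of these letters. MICA and MICB held a short ISRE-like match and CCAAT, with 2 CCAAT matches in MICA and 1 in MICB, without TGACG. Among all windows, 1.68% held the long ISRE-like motif, 3.68% the short one, 5.17% either of these, 13.5% TGACG and 23.2% CCAAT. A match is a description of the letters and no evidence of binding.

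RNA of the class I heavy chains, B2M and NLRC5 fell in cells given G4 oligonucleotides. Of the 23 probe sets, 21 were lower with (uuaggg)4 and AS1411 than in the controls, namely all 17 heavy chain probe sets, all 3 of B2M and that of NLRC5, against 1.1% of all probe sets tested (limma with the line as a block, Benjamini-Hochberg adjusted p under 0.05 over 54613 probe sets). Higher calls numbered 0 of 23, against 0.474% of all. An unadjusted p under 0.05 in limma was held by 22 of 23, against 16.2% of all, and 0 of these 22 were higher. The median log2 difference was -0.81 over the 23 and 0.02 over all probe sets. In the same 21 probe sets both G4 arrays lay below both control arrays in each of the 3 lines, an arrangement that 2.98% of all probe sets showed. Of the 8 probe sets without the _x_at suffix, 6 fell; the other 2 are those of MICA and MICB.

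The number of calls fell when a line was left out: 16 of 23 passed without MKN74, 9 without PC-3 and 4 without HBC4. Calls over all probe sets moved from 859 to 378, 218 and 80 in the same fits. There 21, 21 and 22 of the 23 had an unadjusted p under 0.05 in limma. Without any 1 array 19 to 21 of 23 passed, and 347 to 654 over all. Probe sets 200905_x_at of HLA-E, 221978_at of HLA-F and 232311_at of B2M passed whichever line was left out. Without the line as a block 0 of 23 passed in limma, and 5 of 23 had an unadjusted p under 0.05. Leukocyte, fibroblast and epithelial markers were read beside these values: the 6 leukocyte markers measured differed between G4 and controls by -0.22 to 0.19 (smallest adjusted p 0.137), the 5 fibroblast markers by -0.06 to 0.04, and the 4 epithelial markers by -0.04 to 0.08. Within single lines the leukocyte markers ran wider, from -0.67 to 0.36 in PC-3, -0.62 to 0.25 in HBC4 and -0.12 to 0.14 in MKN74. There 0 of 6 passed in limma in each line, against 1.87%, 3.36% and 1.77% of genes.

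**Figure D1:**
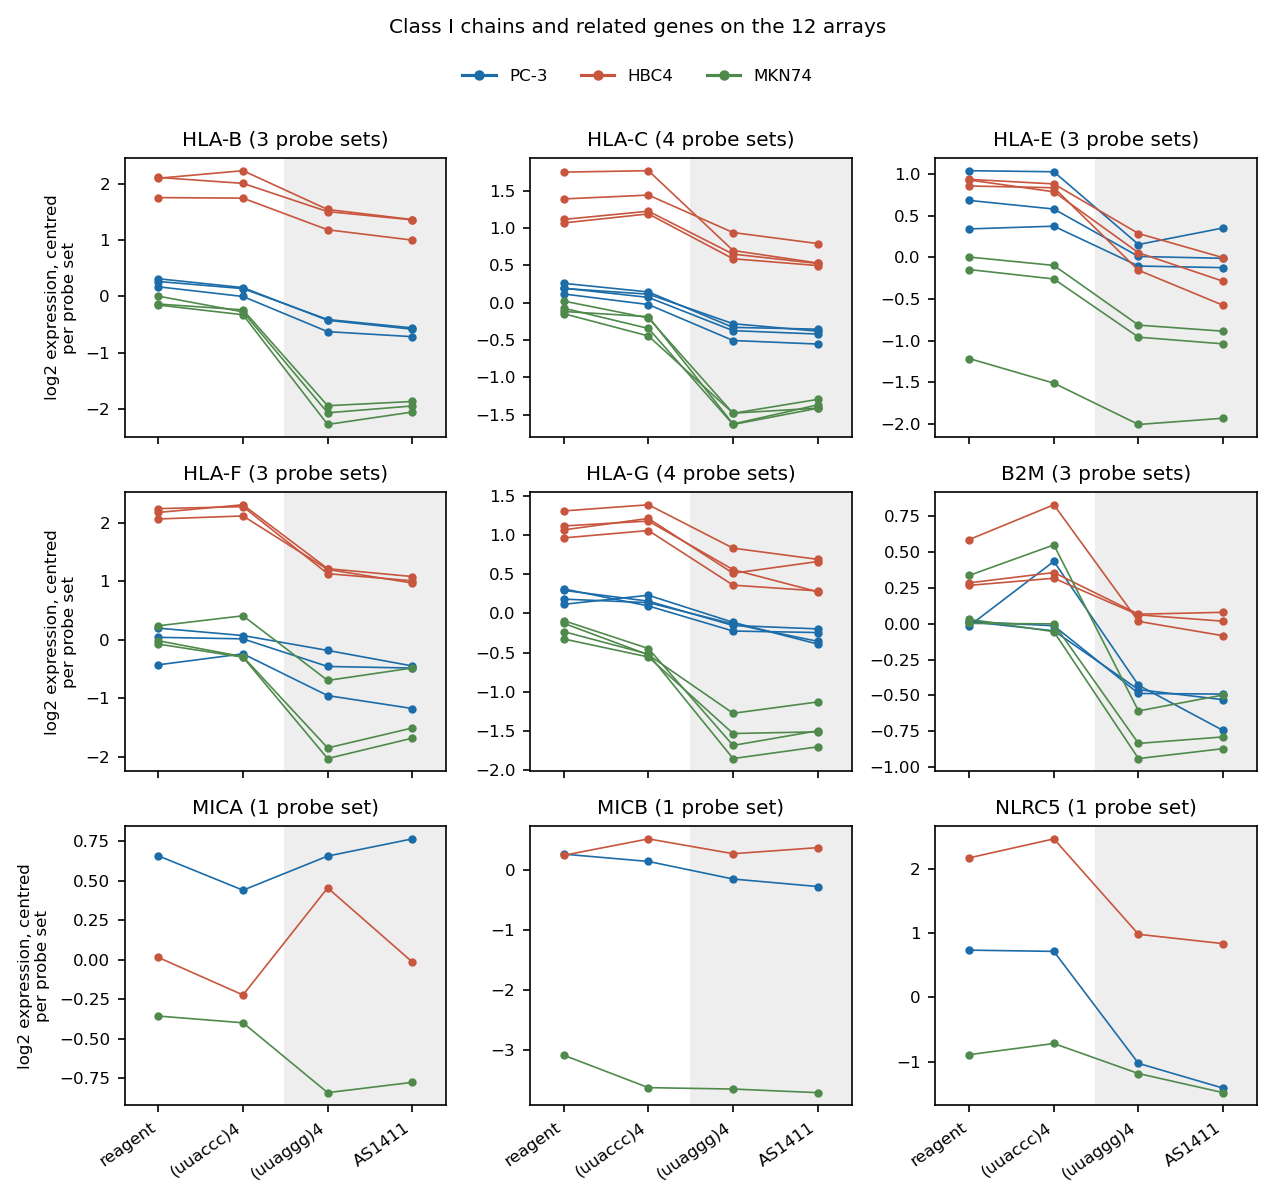
Centred log2 expression (vertical axis, 0 is the median of a probe set over the 12 arrays) of each of the 23 probe sets on the reagent, (uuaccc)4, (uuaggg)4 and AS1411 arrays, with 1 line per probe set and cell line; grey marks the G4 oligonucleotides. The heavy chains, B2M and NLRC5 are lower on the grey side in all 3 lines, and MICA and MICB are not in every line.

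HLA-B, which presents peptides to cytotoxic T cells, fell by about 2-fold. For probe set 208729_x_at the centred values in PC-3 were 0.26 with the reagent, 0.14 with (uuaccc)4, -0.41 with (uuaggg)4 and -0.56 with AS1411. In HBC4 they were 2.09, 2.23, 1.54 and 1.36 in the same order. In MKN74 they were -0.14, -0.24, -1.94 and -1.87. The G4 arrays were the lower pair in each line, and the largest gap was in MKN74. Averaged over lines the difference was -1.04 ± 0.59 (SD, n = 3 lines), or 2.05-fold lower, with a limma adjusted p of 0.00821. The other HLA-B probe sets, 209140_x_at and 211911_x_at, gave -1.09 and -1.10 (adjusted p 0.0116 and 0.0151).

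HLA-C, the other classical chain measured and the main ligand of inhibitory killer-cell immunoglobulin-like receptors, fell by 0.80 to 0.95 on the log2 scale in its 4 probe sets. Probe set 211799_x_at had the values 0.26, 0.15, -0.33 and -0.35 in PC-3 (reagent, (uuaccc)4, (uuaggg)4, AS1411). Its values were 1.75, 1.77, 0.70 and 0.53 in HBC4. In MKN74 they were -0.15, -0.44, -1.48 and -1.41. Controls and G4 arrays did not overlap within a line, although the G4 arrays of HBC4 stayed above the controls of the other lines. The difference was -0.95 ± 0.35 (SD, n = 3 lines; limma adjusted p 0.0011), and the remaining 3 probe sets had adjusted p-values of 0.00875 to 0.0136.

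HLA-E, which displays leader peptides of other class I chains to the inhibitory receptor NKG2A, fell in all 3 probe sets. Its probe set without the shared suffix, 200904_at, read 1.04, 1.03, 0.15 and 0.35 in PC-3. In HBC4 the values were 0.86, 0.84, -0.15 and -0.58. In MKN74 they were -1.22, -1.51, -2.01 and -1.93, the lowest of the 3 lines throughout. The G4 difference was -0.87 ± 0.31 (SD, n = 3 lines; limma adjusted p 0.003), and 200905_x_at and 217456_x_at gave -0.80 and -0.68 (adjusted p 3.28e-04 and 0.0011).

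HLA-F, a non-classical chain found on activated cells, fell by 0.94 to 1.04. Its probe set 221978_at, also without the shared suffix, read -0.43, -0.24, -0.95 and -1.18 in PC-3. In HBC4 it read 2.24, 2.28, 1.13 and 1.01. In MKN74 the values were 0.24, 0.41, -0.69 and -0.48. The gap between G4 and control arrays was -0.73, -1.19 and -0.91 in PC-3, HBC4 and MKN74, with no overlap within a line. The mean was -0.94 ± 0.23 (SD, n = 3 lines; limma adjusted p 3.28e-04). HLA-G, the ligand of leukocyte immunoglobulin-like receptors at the maternal-fetal interface, was measured with 4 _x_at probe sets only, which fell by 0.63 to 0.83 (adjusted p 0.00639 to 0.0237).

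B2M, the light chain that heavy chains need to reach the cell surface, fell in all 3 of its probe sets. For 201891_s_at the values were 0.01, -0.05, -0.46 and -0.53 in PC-3. In HBC4 they were 0.27, 0.32, 0.06 and 0.02. In MKN74 they were 0.00, 0.00, -0.83 and -0.79. The G4 arrays were the lower pair in each line, and the narrowest gap was in HBC4. The difference was -0.51 ± 0.28 (SD, n = 3 lines; limma adjusted p 0.0171), that of 216231_s_at was -0.54 (adjusted p 0.02) and that of 232311_at -0.84 (adjusted p 3.02e-04).

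NLRC5, the transactivator, had the largest difference of the 23 probe sets. It read 0.73, 0.71, -1.02 and -1.41 in PC-3. In HBC4 the values were 2.17, 2.46, 0.98 and 0.83. In MKN74 they were -0.89, -0.71, -1.18 and -1.48. The drop was thus wide in PC-3 and HBC4 and narrow in MKN74. The control arrays of MKN74 were also the lowest of the 3 lines, and a link between these was not tested. The mean difference was -1.29 ± 0.71 (SD, n = 3 lines), or 2.45-fold lower, with a limma adjusted p of 0.00571.

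MICA and MICB, the ligands of NKG2D, did not pass the test. MICA 205904_at read 0.66, 0.44, 0.65 and 0.76 in PC-3. In HBC4 the values were 0.01, -0.22, 0.45 and -0.01. In MKN74 they were -0.36, -0.40, -0.84 and -0.77. G4 and control arrays overlapped in PC-3 and HBC4 and were apart, with lower G4 values, in MKN74. The mean difference was 0.02 ± 0.40 (SD, n = 3 lines; 95% interval -0.25 to 0.29; limma adjusted p 0.961), and its sign turned to -0.05 without PC-3 and -0.13 without HBC4.

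MICB 206247_at read 0.27, 0.15, -0.15 and -0.27 in PC-3. In HBC4 it read 0.25, 0.52, 0.28 and 0.38. In MKN74 the values were -3.09, -3.63, -3.66 and -3.72. The controls were above the G4 arrays in PC-3 and MKN74 and overlapped with them in HBC4. The difference was -0.27 ± 0.19 (SD, n = 3 lines; 95% interval -0.49 to -0.04; limma adjusted p 0.223). An interval that includes or comes near 0 does not show that these ligands were unaffected.

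**Figure D2:**
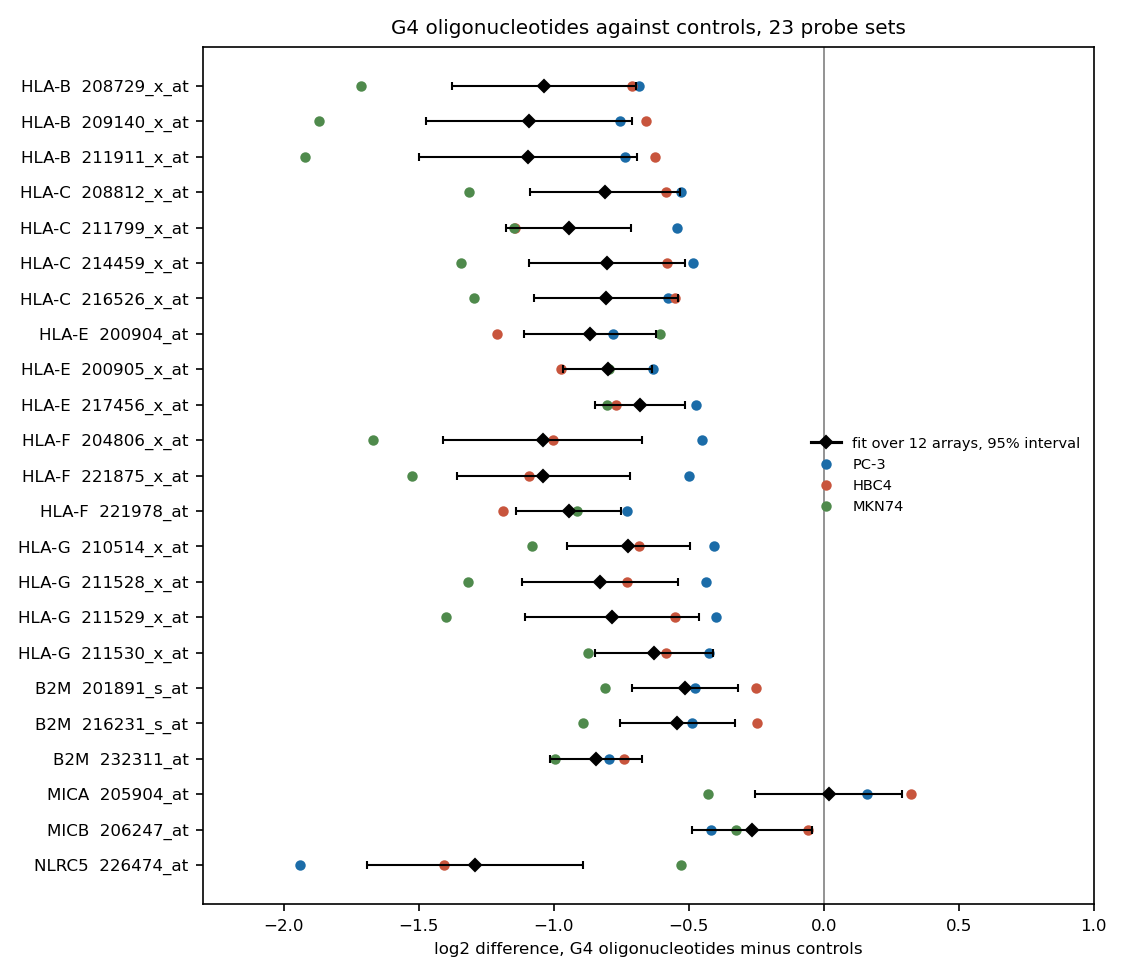
Log2 difference between G4 oligonucleotides and controls for the 23 probe sets; the diamond and bar are the fit over 12 arrays with its 95% interval, and the dots are the differences within each line. All but MICA have intervals below 0; the dots of MKN74 lie farthest left for HLA-B, those of PC-3 for NLRC5.

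Each G4 oligonucleotide was then compared with 1 control treatment. With (uuaggg)4 against (uuaccc)4, both RNA, 3 of 23 probe sets were lower, against 0.159% of all probe sets, and 0 higher, against 0.00549%. They were HLA-E 200905_x_at (-0.67 ± 0.09, SD, n = 3 lines; limma adjusted p 0.042), HLA-F 221978_at (-0.99 ± 0.24; adjusted p 0.0125) and B2M 232311_at (-0.94 ± 0.19; adjusted p 0.00676). All 20 probe sets of heavy chains and B2M had a negative difference, from -1.04 to -0.50, and NLRC5 had -1.23 (adjusted p 0.157). The 3 calls fell to 0 without PC-3, without HBC4, or without the (uuaccc)4 array of PC-3. Over all probe sets the 90 calls moved to 4, 12 and 19 in these fits. The 3 calls fell to 1 without MKN74 (85 over all) and without the (uuaggg)4 array of MKN74 (45). Without the (uuaccc)4 or the (uuaggg)4 array of HBC4, 1 was also left (19 and 21 over all). In each of these fits 21 or 22 of 23 had an unadjusted p under 0.05 in limma. In limma without the line as a block, and on the 6 arrays of these treatments alone, 0 passed, with 1 and 21 of 23 at an unadjusted p under 0.05.

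With AS1411 against the reagent alone, 6 of 23 were lower, against 0.311% of all probe sets, and 0 higher, against 0.0385%. These were HLA-C 211799_x_at (-1.03; limma adjusted p 0.0137), the 3 probe sets of HLA-E (-0.95, -0.93 and -0.77), HLA-F 221978_at (-0.90; adjusted p 0.0104) and B2M 232311_at (-0.74; adjusted p 0.0147). NLRC5 differed by -1.35 (adjusted p 0.059), and HLA-B by -1.20 to -1.09 (adjusted p 0.074 to 0.101). The count moved to 0 without HBC4, 2 without PC-3 and 3 without MKN74. Over all probe sets the 191 calls moved to 14, 49 and 143 in these fits. The count moved to 1 without the reagent or the AS1411 array of HBC4 (61 and 62 over all). It moved to 3 without the AS1411 array of PC-3 or the reagent array of MKN74 (59 and 118 over all). Without the (uuaggg)4 array of MKN74 it moved to 18 (163 over all). In each of these fits 21 or 22 of 23 had an unadjusted p under 0.05 in limma. In limma without the line as a block, and on the 6 arrays of these treatments alone, 0 passed, with 1 and 21 of 23 at an unadjusted p under 0.05. This comparison differs in the presence of any oligonucleotide as well as in its sequence.

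The 2 control treatments, and the 2 G4 oligonucleotides, were then set against each other. For (uuaccc)4 against the reagent, limma called 0 of 23 and 0% of all probe sets; at an unadjusted p under 0.05 there was 1 of 23, B2M 232311_at (0.30 higher with (uuaccc)4), and 1703 of 54613. The heavy chain differences ran from -0.17 to 0.13, and the widest 95% interval reached -0.72. For AS1411 against (uuaggg)4, limma called 0 of 23 and 0% of all probe sets, with 0 of 23 and 2633 of 54613 at an unadjusted p under 0.05. Heavy chains differed by -0.15 to 0.09 between the DNA and the RNA G4 oligonucleotide, with 95% intervals between -0.60 and 0.54. NLRC5 differed by -0.28 (95% interval -0.84 to 0.29). These intervals leave room for differences of that size and do not show that the oligonucleotides act alike.

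**Figure D3:**
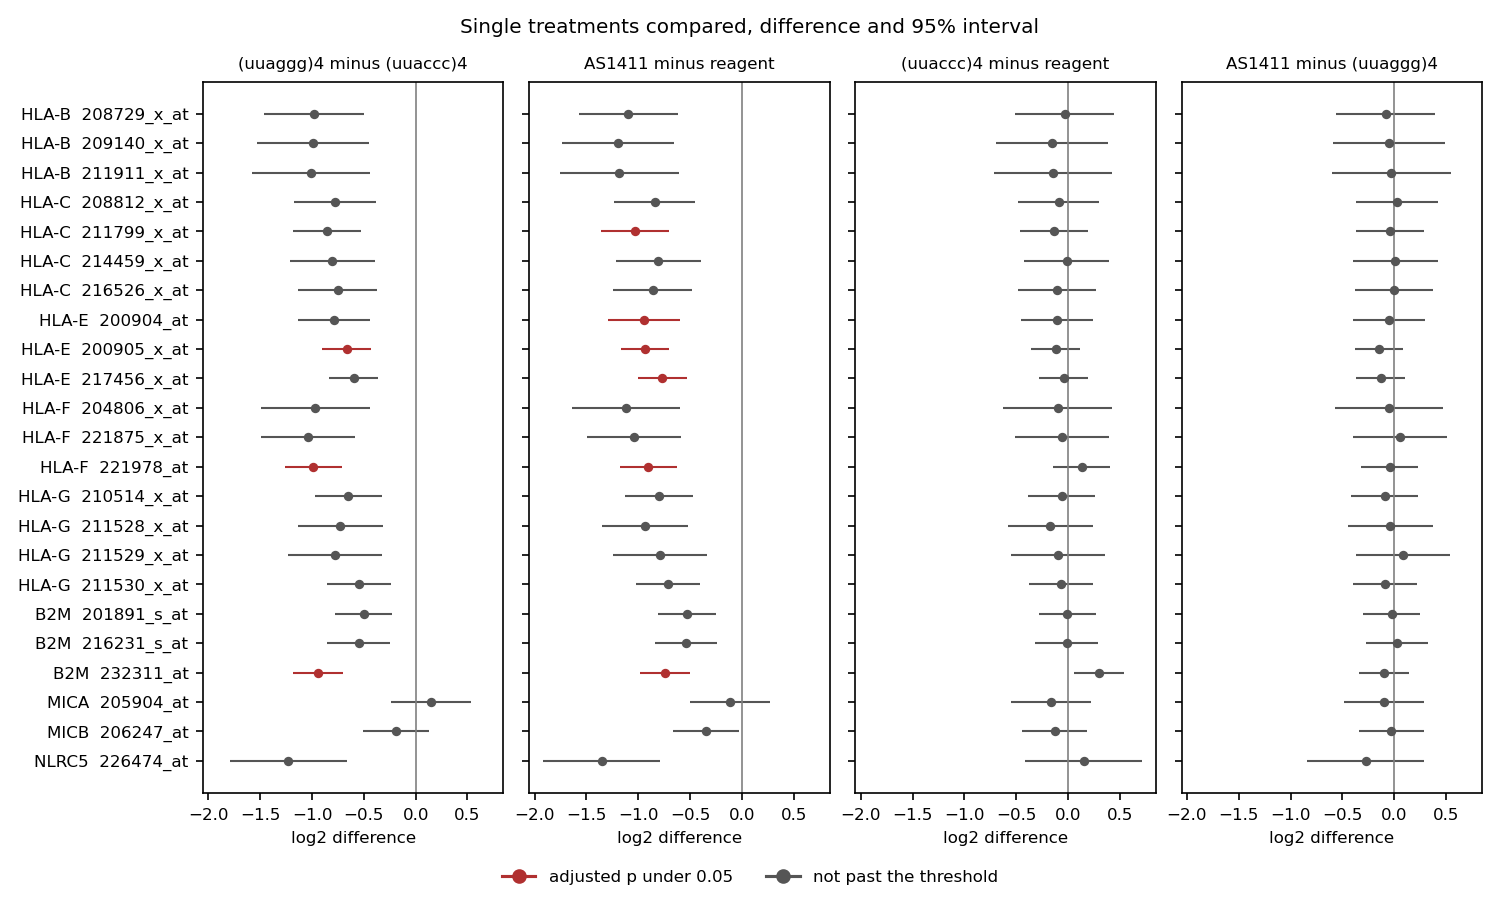
Log2 difference (horizontal axis) with its 95% interval for the 23 probe sets in the 4 comparisons of single treatments; red marks an adjusted p under 0.05. In the left panels, (uuaggg)4 against (uuaccc)4 and AS1411 against the reagent, heavy chains and B2M lie left of 0, with 3 and 6 probe sets in red; in the right panels the intervals lie around 0, apart from that of B2M 232311_at for (uuaccc)4 against the reagent.

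On the control arrays the lines already differed in these genes. Against PC-3, HBC4 was higher in 19 of 23 probe sets and lower in 1, where 20.2% and 20% of all probe sets were higher and lower. MICA was the lower one (-0.65, limma adjusted p 0.00442). HLA-F was 1.96 to 2.59 higher in HBC4, HLA-B 1.66 to 1.96, HLA-C 0.996 to 1.56 and HLA-G 0.85 to 1.17, NLRC5 was 1.59 higher, and B2M was 0.31 to 0.50 higher. MICB differed by 0.18 (adjusted p 0.432). In the leukocyte marker list, HLA-DRA, CD14 and LAPTM5 were also higher in HBC4 than in PC-3, by 5.11, 3.30 and 1.15 (3 of 6 measured, against 25% of genes), whereas PTPRC, the pan-leukocyte antigen, differed by -0.07 (adjusted p 0.589). The part of such markers in the HLA differences was not tested.

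MKN74 had the lowest values on control arrays for most of these probe sets. It was lower than HBC4 in 21 of 23 probe sets, against 16.8% of all, with 0 higher, against 20.3%. Heavy chains differed from HBC4 by -2.40 to -0.96 and NLRC5 by -3.12. Against PC-3, MKN74 was lower in 15 of 23 and higher in 1, against 20.3% and 24.4% of all probe sets. The difference was -3.57 for MICB (11.9-fold lower, limma adjusted p 5.68e-09), -1.53 for NLRC5 and -0.92 for MICA. For HLA-B it was -0.47 to -0.22, and 2 of 3 probe sets passed. The count of 16 moved to 8 without the (uuaccc)4 array of MKN74, while that over all probe sets moved from 24449 to 21469.

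In the order of line means on control arrays, HBC4 came first for every probe set of HLA-B, HLA-C, HLA-F, HLA-G and NLRC5, with PC-3 next except for HLA-F 221978_at. For B2M, MKN74 minus PC-3 was 0.02, -0.01 and 0.23 (limma adjusted p 0.287 or more). For MICA the order was PC-3, HBC4, MKN74, of which HBC4 and MKN74 were not apart (-0.27, adjusted p 0.201). Probe sets of 1 gene disagreed in places: HLA-E 200904_at differed by -2.40 between MKN74 and PC-3 while 217456_x_at differed by -0.40, and HLA-F 221978_at was 0.66 higher in MKN74 while 204806_x_at and 221875_x_at gave -0.32 and -0.18 without passing.

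**Figure D4:**
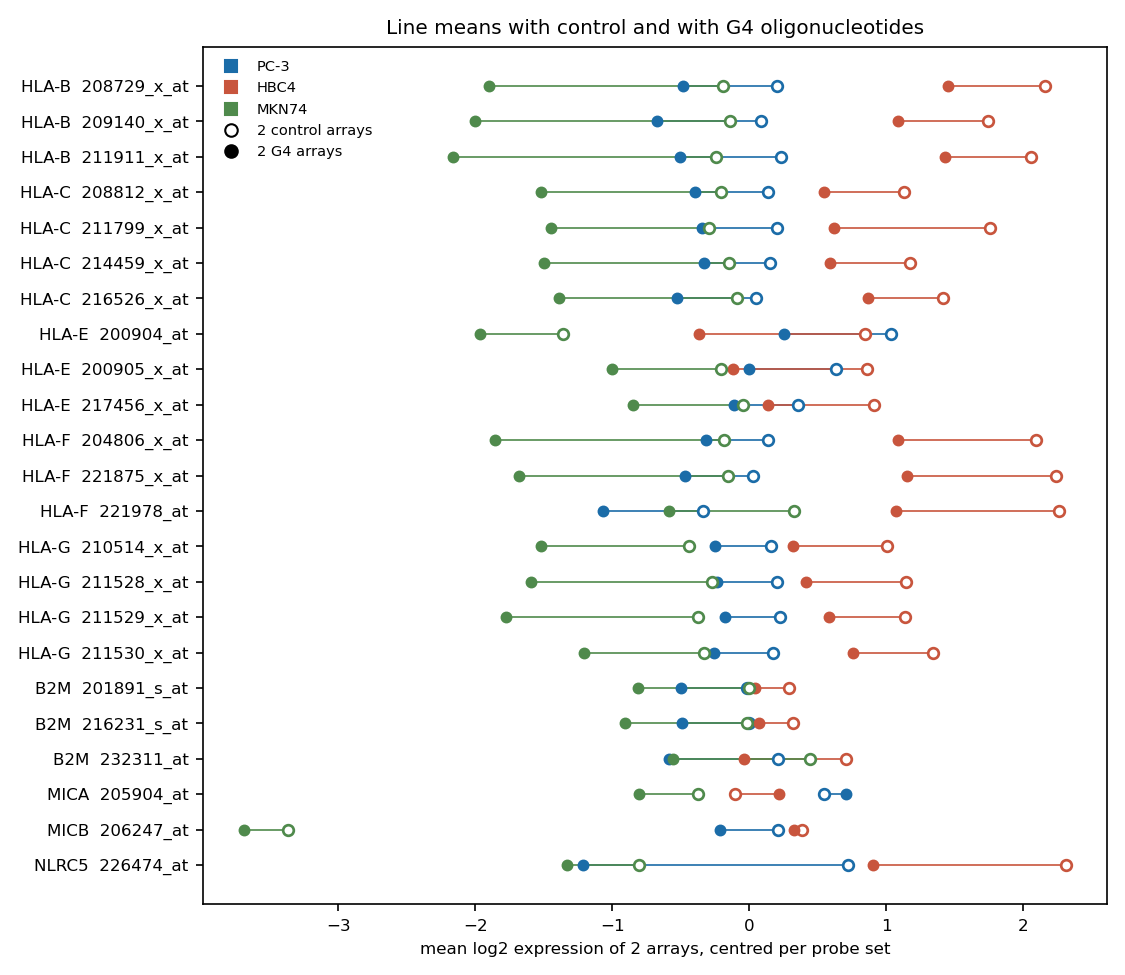
Mean centred log2 expression of the 2 control arrays (open) and the 2 G4 arrays (filled) of each line for the 23 probe sets; a bar joins both means of a line. HBC4 lies to the right for most heavy chains and NLRC5, and MICB in MKN74 lies near -3.4 and -3.7, far from the other lines.

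Within single lines, calls differed by gene. In PC-3, 11 of 23 probe sets were lower with G4 oligonucleotides, against 0.798% of all, in HBC4 16, against 0.981%, and in MKN74 19, against 0.652%. In each line 0 were higher, against 0.408%, 0.566% and 0.179% of all probe sets. In PC-3 the calls were NLRC5 (-1.94, 3.84-fold, limma adjusted p 6.38e-05), the 3 HLA-B and the 3 B2M probe sets, 2 of HLA-E and 1 each of HLA-C and HLA-F. HLA-G gave -0.44 to -0.40 there (adjusted p 0.136 or more). In HBC4 the calls covered NLRC5 (-1.41, adjusted p 9.42e-04) and 15 of 17 heavy chain probe sets, while B2M gave -0.74 to -0.25 (adjusted p 0.0524 or more). In MKN74 they covered 16 of 17 heavy chain probe sets and all of B2M, while NLRC5 gave -0.53 (adjusted p 0.192). The 2 arrays of a class had different treatments, so the spread is that between treatments.

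Leaving out any 1 of the 4 PC-3 arrays left 1 to 4 calls in PC-3, and 245 to 427 over all probe sets (main 659). Leaving out any 1 of the 4 HBC4 arrays left 6 to 10 in HBC4, and 261 to 530 over all (main 845). The MKN74 count stayed at 15 to 19 without any 1 array, with 152 to 369 over all (main 454). With only the 4 arrays of a line, 1, 7 and 9 of 23 passed in PC-3, HBC4 and MKN74, where 22, 19 and 22 had an unadjusted p under 0.05. Quantile normalization between arrays left 5 calls in PC-3, and 387 over all probe sets.

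The size of the G4 effect differed between lines for HLA-B and NLRC5. The interaction F test passed for 4 of 23 probe sets, against 0.487% of all: HLA-B 208729_x_at, 209140_x_at and 211911_x_at (limma adjusted p 0.0237, 0.0189 and 0.0141) and NLRC5 (adjusted p 0.0416). HLA-B fell by 1.71 to 1.92 in MKN74, or 3.28- to 3.79-fold, by 0.69 to 0.75 in PC-3 and by 0.63 to 0.71 in HBC4. NLRC5 went the other way, with falls of 1.94 in PC-3 and 1.41 in HBC4 against -0.53 in MKN74. Among the others, the smallest adjusted p of the F test was 0.0512 for HLA-G, 0.0601 for HLA-C and 0.0619 for HLA-F (204806_x_at). It was 0.117 for B2M, 0.26 for MICA, 0.379 for HLA-E and 0.701 for MICB. An unadjusted p under 0.05 in the F test was held by 17 of 23, against 12% of all probe sets. The 4 calls fell to 0 without the reagent or the (uuaggg)4 array of MKN74 (17 and 16 of 23 at an unadjusted p under 0.05 in limma), to 1 without the AS1411 array of MKN74 or the reagent array of HBC4, and to 2 without the (uuaccc)4 array of MKN74, the reagent or (uuaccc)4 array of PC-3, or with quantile normalization.

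Contrasts of the G4 effect between lines were chosen after these values were seen. The G4 effect in MKN74 minus that in PC-3 was -1.18 to -1.03 for the HLA-B probe sets (limma adjusted p 0.022 to 0.0271) and 1.41 for NLRC5 (adjusted p 0.0272). It also passed for HLA-F 204806_x_at (-1.22, adjusted p 0.0367) and HLA-G 211529_x_at (-0.9996, adjusted p 0.041), which makes 5 of 23 more negative and 1 less negative, against 0.181% and 0.19% of all. HLA-F 221978_at gave -0.18 (adjusted p 0.787) and HLA-E 200904_at 0.17 (adjusted p 0.838) in that contrast. Against HBC4, the effect in MKN74 was more negative for the 3 HLA-B probe sets (-1.295 to -1.004), against 0.0916% of all, and less negative for 0, against 0.141%; NLRC5 gave 0.88 there without passing (adjusted p 0.176). Between HBC4 and PC-3 limma called 0 of 23 in either direction, against 0.0806% and 0.0568% of all, and 4 heavy chain probe sets and NLRC5 had an unadjusted p under 0.05. NLRC5 differed by 0.53 (95% interval 0.05 to 1.02; adjusted p 0.437).

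Genes that feed peptides to class I molecules fell in part with them. These comparisons used 1 value per gene, the mean of its probe sets, in a limma fit over 19775 genes, of which 1.65% were lower and 0.961% higher with G4 oligonucleotides. Of 13 measured genes of peptide processing and loading, 4 were lower and 0 higher, with a median of -0.30 against 0.02 over all genes. They were TAP1, a subunit of the peptide transporter (-1.35 ± 0.47, SD, n = 3 lines; adjusted p 5.38e-04), the immunoproteasome subunit PSMB9 (-1.47 ± 0.80; adjusted p 0.00712), the proteasome activator PSME1 (-0.33 ± 0.13; adjusted p 0.0174) and TAPBP, the tapasin of the loading complex (-0.29 ± 0.11; adjusted p 0.0284). TAP2 gave -0.44 (adjusted p 0.056) and PSMB8 -0.56 (adjusted p 0.13). PSME2 was not analysed here. TAP1 and PSMB9, like NLRC5, fell most in PC-3 (-1.86 and -2.36), and their effects differed between lines (F tests, adjusted p 0.0143 and 0.025). TAP1 passed whichever line was left out, PSMB9 did not pass without HBC4 (adjusted p 0.119), and PSME1 and TAPBP did not pass whichever line was left out (adjusted p 0.102 to 0.152 and 0.0921 to 0.197). Without the line as a block all 4 had an adjusted p of 0.9999. TAPBP passed in 2 and PSME1 in 9 of 12 fits without 1 array, and TAPBP did not pass after quantile normalization (adjusted p 0.0701).

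Among 12 measured transcription factors that act on class I promoters, 3 were lower and 0 higher, against 1.65% and 0.961% of genes. Their median was -0.03. IRF1, an activator that binds the ISRE, gave -0.50 ± 0.18 (SD, n = 3 lines; limma adjusted p 0.0043) with -0.70, -0.39 and -0.41 in PC-3, HBC4 and MKN74. IRF2 gave -0.26 (adjusted p 0.0402) and RFXAP, a subunit of the RFX complex, -0.29 (adjusted p 0.0429). Its partner RFX5 gave -0.29 without passing (adjusted p 0.0674), and the NF-Y subunits NFYA, NFYB and NFYC gave 0.11, 0.01 and 0.11. ATF1 was not analysed here. IRF1 did not pass without PC-3 (adjusted p 0.0585) or without HBC4 (0.0863), IRF2 and RFXAP did not pass whichever line was left out, and without the block all 3 had an adjusted p of 0.9999. IRF2 passed in 2 and RFXAP in 1 of 12 fits without 1 array, and RFXAP did not pass after quantile normalization (adjusted p 0.0581).

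Of 10 measured other ligands and sheddases that bear on NK cell recognition, 1 was lower and 0 higher, against 1.65% and 0.961% of genes. Their median was -0.13. The lower gene was CD274 (PD-L1), the ligand of PD-1 (-0.65 ± 0.45, SD, n = 3 lines; limma adjusted p 0.024). CD274 fell in PC-3 (-0.87) and HBC4 (-0.94) and gave -0.13 in MKN74, a difference between lines that passed the F test (adjusted p 0.0143), and its call held in 4 of 12 fits without 1 array. It did not pass without PC-3 (adjusted p 0.203), without HBC4 (0.249) or without the block (0.9999). ADAM17 and ADAM10, which shed MIC proteins, gave -0.16 each (adjusted p 0.105 and 0.13), and NECTIN2, a ligand of DNAM-1, gave -0.15 (adjusted p 0.165). The NKG2D ligands ULBP1, ULBP2 and ULBP3 gave 0.12, -0.11 and -0.04. RAET1G and RAET1L were not analysed here.

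**Figure D5:**
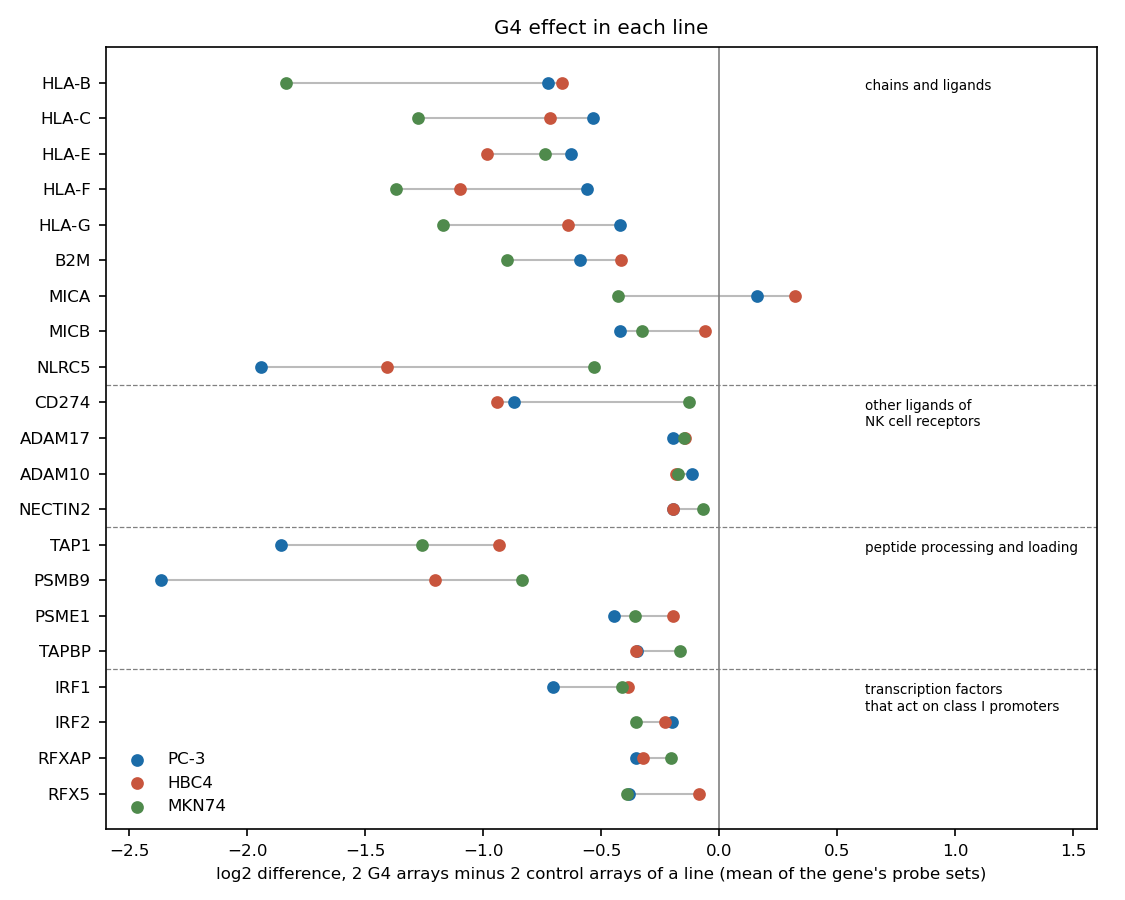
Log2 difference of the 2 G4 arrays minus the 2 control arrays in each line, for the 9 genes and the leading genes of the 3 lists, as means of a gene's probe sets; a bar joins the lines. MKN74 lies farthest left for HLA-B, HLA-C, HLA-F, HLA-G and B2M, and PC-3 for NLRC5, TAP1, PSMB9 and IRF1. The HLA-F probe set without the _x_at suffix, 221978_at, fell most in HBC4 (-1.19, against -0.91 in MKN74).

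Genes whose pattern over the 12 arrays was most like that of the heavy chains were ranked by Pearson's r with the mean of HLA-B, HLA-C, HLA-E and HLA-F, after centring within each line. The 12 arrays share 3 lines and 4 treatments, so r is a description. The 6 leading genes were HCP5, a non-coding gene of the MHC class I region (r = 0.987), LGALS3BP, a secreted glycoprotein (0.974), CLIP4, a CAP-Gly domain protein (0.971), the histone gene H2BC4 (0.968), the epithelial transcription factor EHF (0.967) and DRAM1, a lysosomal membrane protein (0.964). Their differences between G4 and controls were -1.54, -1.21, -0.50, -0.94, -0.63 and -0.32 in that order; the choice by likeness to the heavy chains fixes this direction, so they are given with no test. Of the members outside that mean, HLA-G had an r of 0.988 and B2M 0.963, while NLRC5 had 0.731, MICB 0.652 and MICA 0.202.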

How the data were processed

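Expression was measured on 12 Affymetrix arrays hybridised with biotin-labelled cRNA from 100 ng of total RNA, per the labels' protocols. The deposited values are on a log2 scale (base inferred from the values, highest 11.2), and the submitters' processing notes list RMA. The authors' table was centred: medians over the arrays are 0 for every one of 54675 probe sets (largest departure 5e-07), and the sources used here do not give that step. Centring keeps differences and removes levels, so no filter on dim probe sets could be set. After removal of 62 array controls, 41091 probe sets named 1 gene, 1801 several and 11721 none, by a platform annotation of 2016; the member symbols equal those of RefSeq for 23 of 23.

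Linear models were fitted to all arrays in limma 3.58.1 under R 4.3.3, with 6 residual degrees of freedom and Benjamini-Hochberg adjustment over every probe set tested, or over 19775 genes for means of a gene's probe sets. One model held treatment and cell line, the other cell line and a G4 effect in each line. Samples are paired by their cell line: across probe sets, correlations were at least 0.856 within a line and at most -0.171 between lines, where centring lowers them. Alternatives were quantile normalization, a robust variance prior, testing only probe sets that name 1 gene, no block, only the arrays compared, only probe sets without _x_at, and leaving out a line or an array. The scripts were tested on simulated data. The genes named are all members, the 4 of each list with the smallest p, IRF1 and RFX5, and the 6 most alike (an item of this rule is not reported here); further list genes and the neighbours were picked after their values were seen. The members and lists were chosen with earlier results of these data known.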

Additional observations from a re-analysis of the deposited data

Results flagged for a closer look

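The response to G4 oligonucleotides differed between the 3 lines in 4 probe sets, by the interaction F test of limma. For HLA-B, F was 27.94 for 208729_x_at, 30.16 for 209140_x_at and 34.65 for 211911_x_at, with the largest fall in MKN74. For NLRC5 226474_at, F was 20.78, with the largest fall in PC-3 and the smallest in MKN74. Each test compares 2 G4 arrays with 2 control arrays per line. The 3 HLA-B probe sets share probes with similar sequences, so they are not 3 independent results.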

How the results depend on the processing

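Counts of the 23 probe sets past the threshold moved by over 1.5 times as follows, and the cause was not tested unless fewer arrays or probe sets are named. Without the line as a block (no paired analysis), 0 passed for G4 against controls (main count 21), (uuaggg)4 against (uuaccc)4 (3) and AS1411 against the reagent (6), with 5, 1 and 1 at an unadjusted p under 0.05 in limma. With quantile normalization, 5 passed within PC-3 (11) and 2 in the interaction (4). With only the arrays of a comparison, 0 passed for (uuaggg)4 against (uuaccc)4 and for AS1411 against the reagent, 1 within PC-3, 7 within HBC4 (16) and 9 within MKN74 (19). The 8 probe sets without _x_at were compared by share. A larger share passed for (uuaggg)4 against (uuaccc)4 (2 of 8, main 3 of 23) and within PC-3 (6 of 8, main 11 of 23). A smaller share passed within HBC4 (3 of 8, main 16 of 23) and within MKN74 (4 of 8, main 19 of 23).

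Leaving out 1 line gave 4 to 16 calls for G4 against controls, 0 to 1 for (uuaggg)4 against (uuaccc)4 and 0 to 3 for AS1411 against the reagent. Leaving out 1 array gave 19 to 21, 0 to 4 and 1 to 18 for these, 1 to 11, 6 to 17 and 15 to 19 within PC-3, HBC4 and MKN74, 0 to 4 for the interaction and 8 to 16 for MKN74 against PC-3 (main 16). Without 1 line MICA gave -0.13 to 0.24 in G4 against controls, and without 1 array -0.09 to 0.12. Its sign turned to -0.05 without PC-3, -0.13 without HBC4, -0.01 without the (uuaccc)4 or -0.04 without the AS1411 array of PC-3, and -0.02, -0.04 or -0.09 without the reagent, (uuaccc)4 or (uuaggg)4 array of HBC4, and was never past the threshold. The sign of the other 22 in that comparison held in every alternative run.

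Over all probe sets, quantile normalization moved the calls from 90 to 30 for (uuaggg)4 against (uuaccc)4, from 191 to 115 for AS1411 against the reagent, from 659 to 387 within PC-3 and from 845 to 2131 within HBC4. No block moved 859, 90 and 191 to 0. Only the arrays of a comparison gave 40, 45, 263, 302 and 88 (within MKN74, from 454). Leaving out a line moved the 859 to between 80 and 378, and leaving out an array to between 347 and 654. Without 1 line the 90 moved to between 4 and 85, and the 191 to between 14 and 143. With 3 lines and centred values, small differences and probe sets near background cannot be recognised.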

Other observations

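Probe set 205905_s_at, which names MICA and MICB together, read -0.00, 0.02, 0.28 and 0.28 in PC-3 (reagent, (uuaccc)4, (uuaggg)4, AS1411). In HBC4 it read 0.00, -0.21, 0.07 and 0.10, and in MKN74 -0.36, -0.41, -0.86 and -0.35. G4 arrays were above the controls in PC-3 and HBC4 and overlapped with them in MKN74. The difference between G4 and controls was 0.08 (95% interval -0.14 to 0.30; limma adjusted p 0.74).

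Genes next to the members on the chromosome were read from the RefSeq gene order. Between HLA-C and MICB the measured genes in order were HLA-C, HLA-B, MICA-AS1, MICA, LINC01149, HCP5, HCG26, MICB-DT and MICB. HCP5, which lies between both MIC genes and was also named by its likeness to the heavy chains, gave -1.54 between G4 oligonucleotides and controls. LINC01149 gave 0.16 and HCG26 -0.23 (limma adjusted p 0.417 and 0.133), and MICA-AS1 gave -0.12 (adjusted p 0.541). On both sides of B2M, PATL2 gave -0.33 (adjusted p 0.0453) and TRIM69 -0.58 (adjusted p 0.00785). The neighbours of NLRC5, CETP and CPNE2, gave 0.11 and 0.14 (adjusted p 0.529 and 0.221), and those of HLA-E, HCG18 and GNL1, gave -0.11 and 0.02 (adjusted p 0.375 and 0.887).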
